A study of Mus musculus with 7 samples.

Results

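JUND is one of the Jun proteins, the basic leucine zipper subunits that pair with each other or with Fos proteins such as FRA2 to form the transcription factor AP-1. AP-1 dimers bind short palindromic DNA elements, mostly in enhancers, and the subunits present in a cell decide which dimers form. JUND is made in most tissues and in neurons, and is known for slowing cell division where other Jun proteins promote it. Here the JUND binding events of 2 mouse striatal cell lines were compared, all 46583 of them, out of 137595 events listed for FRA2, JUND and SOX2 together.

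The lines are STHdhQ7, of genotype HdhQ7/Q7 with a short glutamine tract in huntingtin, and STHdhQ111, of genotype HdhQ111/Q111 with a long tract of the kind found in Huntington's disease. They are called Q7 and Q111 below. Both come from the embryonic striatum at day 14 on a mixed 129SvEv/CD1 background, carry a temperature-sensitive immortalising antigen, and were used before passage 15. Both were grown at 33 °C and held at 39 °C for 2 days to stop division. JUND was precipitated in each line with the same antibody lot, and 2 replicates were pooled before deposit, so each line gives 1 JUND library. There is no spread between replicates to set a difference against. Each line is 1 derived line per genotype, so the glutamine tract and anything else in which the lines differ cannot be told apart.

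An event is a single base position on the mouse build mm9 with the number of reads that the caller assigned to it. The 46583 events held 1660158 reads in Q7 and 1609483 in Q111. The difference at an event is log2 of Q111 reads over Q7 reads, with 0.5 added to each, minus its median over the 22907 events with 20 or more reads in each line. That median was 0.002, so the scaling moved single values little. The Q111 share of an event's reads was tested against that centre by an exact binomial test, two-sided, with Benjamini-Hochberg adjustment over all events. An event is called higher in a line with an adjusted p below 0.05 and a difference of at least 2-fold. The test compares 2 pooled libraries by counting error alone. Reads multiplied by PCR are not independent molecules, so the intervals given for folds are the narrowest that could hold. No genome or annotation of mm9 was used here, so events are given by position, without a gene or a sequence.

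JUND occupancy differed between the lines in both directions. Called higher in Q111 were 8628 events, 18.5% of those tested, and 9987, or 21.4%, were called higher in Q7. The other 27968 events were not called. An event was listed for its reads in either line: 17305 were marked as bound in both lines, 17904 in Q7 alone and 11374 in Q111 alone. The calls are therefore not independent of the listing. At the median, events called higher in Q111 held 36 Q111 reads and 9 Q7 reads. Those called higher in Q7 were the mirror image, with 36 Q7 reads and 10 Q111 reads. Differences of at least 4-fold were as common one way as the other, with 3733 events higher in Q111 and 3744 higher in Q7. Larger differences were found more often towards Q111: 1187 events against 973 at 8-fold or more, and 293 against 213 at 16-fold or more. Over all events the difference had a median of -0.06 and ran from -2.38 at the 5th percentile to 2.44 at the 95th.

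The balance of the 2 directions rests on the scaling. Scaled by the control reads in the same events, all differences move by -0.73, and 4037 events are called higher in Q111 against 20023 higher in Q7, or 16.8% of calls in place of 46.3%. Control reads per event averaged 4.32 in Q7 and 7.19 in Q111. Which scaling is right was not tested. Gaps between the medians of 2 groups of events are the same under either, because every event moves by the same amount. Signs and counts are not: with control scaling a median between 0 and 0.73 turns negative, and all numbers of calls, runs and windows below belong to the scaling by JUND reads.

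**Figure D1:**
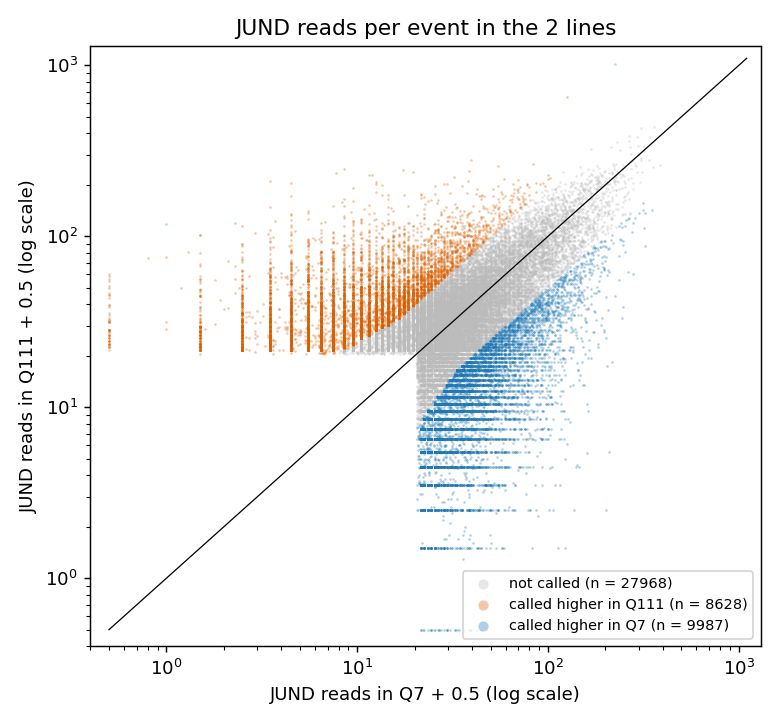
JUND reads per event in Q7 (horizontal) and Q111 (vertical), with 0.5 added, both on log scales. Each point is 1 of the 46583 events, coloured by its call, and the line marks equal reads. The empty lower left corner shows that an event is listed only with 20 or more reads in at least 1 line.

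Being listed took at least 20 reads in a line that was marked as bound, and this shapes the weak events. None of the 2555 events with fewer than 30 reads over both lines, and none of the 8457 with 30 to under 40, was marked present in both. Of the first of these classes 49.5% were called higher in Q7 and 43.4% higher in Q111. Called shares were lowest for the strongest events. Among the 1496 events with 200 reads or more, 98.2% were marked present in both lines, 6.75% were called higher in Q111, 10.2% higher in Q7, and 83.0% were not called. Most of these strongest events were thus marked in both lines. A mark took at least 20 reads in that line, so the share marked in both depends on read number by this limit alone. Of the 1000 events with the most reads in Q7, 443 were also among the 1000 with the most in Q111. Called higher in Q7 were 293 of them, where 21.4% of all events were. Of the 1000 with the most reads in Q111, 233 were called higher in Q111, where 18.5% of all events were. Each ranking used reads that also enter the call, which by itself favours calls in that direction.

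A few strong sites could be shown to be nearly equal in the lines. At 15 events, each with 334 or more reads over both lines, the 95% interval of the fold lay between 0.8 and its inverse. Fewer reads give a wider interval, so 15 is not the number of equal sites. Of those named, the one with the most reads was chr6:52775728, with 317 Q7 reads and 339 Q111 reads, a Q7 over Q111 fold of 0.937 (0.801 to 1.09). Next came chr10:92884926, with 318 and 314 reads, and chr8:70681281, with 297 in each line. The remaining named sites are on chromosome 15, chr15:58312051 with 270.7 Q7 and 276.5 Q111 reads and chr15:59280451 with 245 and 246. All of these 5 sites had a FRA2 event within 31 bp and a SOX2 event within 72 bp. FRA2 was not called different at any of them. Few FRA2 events paired with such JUND differences were called. With JUND from 0 to 0.5 they were 6.37% higher in Q111 and 0.965% higher in Q7, and with JUND from -0.5 to 0, 1.37% and 4.79%. Of all JUND events, 43.6% had both a FRA2 and a SOX2 event within 1 kb, and 6.75% had SOX2 without FRA2. With control scaling the log2 differences of these 5 sites lay between -0.75 and -0.64. At chr8:70681281, for example, FRA2 had 936 Q7 reads and 1008 Q111 reads.

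Among called events, most of those with the most reads differed by modest factors. Towards Q111 the strongest was chr19:28696260, which held 83 Q7 reads and 263 Q111 reads and was 3.15-fold higher in Q111 (2.46 to 4.10; adjusted p of the exact binomial test 1.7e-20). The steepest of the 5 strongest was chr3:83632227, with 39 Q7 reads and 278.4 Q111 reads (7.05-fold, 5.08 to 10.2). The other 3, chr10:58972111, chr4:137057079 and chr15:56801872, were 2.26-fold, 2.15-fold and 2.14-fold higher in Q111. FRA2 was called higher in Q111 at all 5, where 24.0% of FRA2 events were called in that direction. At chr3:83632227 the FRA2 event lay 22 bp away and held 175 Q7 and 619.6 Q111 reads. With control scaling chr3:83632227 alone of these 5 kept its call, and with a dispersion of 0.05 assumed for each library it and chr19:28696260 did.

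The strongest events called higher in Q7 were near the 2-fold limit. The first, chr10:123575732, held 351 Q7 reads and 143 Q111 reads and was 2.45-fold higher in Q7 (2.02 to 3.01; adjusted p of the exact binomial test 5.0e-19). The event chr10:85563169 had 320.8 and 137.1 reads (2.34-fold, 1.92 to 2.89). The remaining 3, chr4:58415215, chr17:64148535 and chr3:78957045, were 2.19-fold, 2.20-fold and 2.03-fold higher in Q7. Here FRA2 had fewer reads in Q111 at each site but was called at none of the 5, against 20.7% of FRA2 events called higher in Q7. Its log2 differences ran from -0.81 at chr10:85563169 to -0.27 at chr3:78957045. All 5 had a SOX2 event within 188 bp, as did the 5 strongest higher in Q111 apart from chr3:83632227. With the assumed dispersion only chr10:123575732 of the 5 higher in Q7 was called. The event chr3:78957045 also lost its call with control reads subtracted or with scaling by IP reads.

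JUND differences lay together along the chromosomes. Neighbouring events that were both called nearly always went the same way when close: 783 of 793 adjacent pairs 100 to 500 bp apart (98.7%) had 1 direction. Of all calls 46.3% were higher in Q111, so many pairs would share a direction without any grouping. The share fell with distance, to 82.1% of 976 pairs at 2 to 5 kb, 72.2% of 1756 pairs at 20 to 50 kb and 59.6% of 94 pairs over 1 Mb apart. Same-direction calls were thus most frequent among the closest pairs and still more frequent at 20 to 50 kb than over 1 Mb. The differences themselves, called or not, had a Pearson r of 0.71 across the 3753 adjacent pairs at 100 to 500 bp, 0.27 across 9408 pairs at 20 to 50 kb and 0.11 across 327 pairs over 1 Mb. All pairs share the 2 libraries and events are not replicates, so no p is attached.

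**Figure D2:**
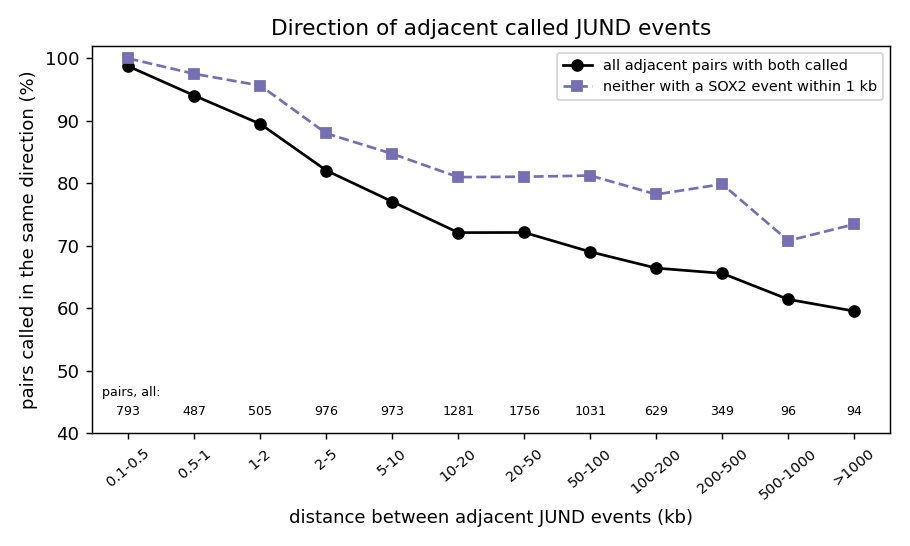
Share of adjacent JUND event pairs, both called, that were called in the same direction, by the distance between them in kb. Circles show all pairs, with their numbers printed at the bottom, and squares the pairs in which neither event had a SOX2 event within 1 kb. The share of all pairs falls from 98.7% at 100 to 500 bp to 59.6% over 1 Mb. Events without SOX2 were called more often higher in Q111 than in Q7 (33.2% and 12.7% with FRA2, 25.4% and 12.3% without). Squares and circles thus have unlike base shares.

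Events less than 100 bp apart behaved otherwise. There were 7 such pairs, and in the 2 pairs with both events called the directions were opposite. On chromosome 10, position 67248439 went from 189.9 reads in Q7 to 0.1 in Q111, while position 67248457, at 18 bp, went from 3 to 209.7. On chromosome 3, positions 109057143 (65.7 and 0.1 reads) and 109057161 (0.3 and 73.9 reads), also 18 bp apart, did the same. Summed over each pair the log2 differences were 0.12 and 0.16, so neither site as a whole differed by much. How the caller assigned reads to positions this close, or to those 100 to 500 bp apart, was not tested. The 14 events of the 7 pairs were left out when single events were named.

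For part of the calls the grouping was seen at the scale of megabases. With uncalled events skipped, there were 3074 runs of the direction higher in Q111 and 3073 of the direction higher in Q7. Of these, 127 and 159 held 10 or more called events. They took in 1955 of the 8628 events called higher in Q111 and 2307 of the 9987 called higher in Q7. The longest, on chromosome 6 from position 8408833 to 16138217, held 41 events called higher in Q111 over 7.73 Mb. Events called higher in Q7 are absent from such a run by definition. The called events lay unevenly, with 20 from 12 to 13 Mb of the chromosome and 13 from 13 to 14 Mb. No JUND event was listed between 1040 and 3886 kb from the start of the run. The 57 events of this run held 645 Q7 reads and 2396 Q111 reads, with a median log2 difference of 2.23. The 16 uncalled events leaned the same way in 13 cases. FRA2 had 91 events there, with 63 called higher in Q111, 2 called higher in Q7 and a median of 1.84. Control reads over the same JUND events came to 180.8 in Q7 and 148.5 in Q111. Their ratio was 0.821, against 1.66 over all JUND events. The ratio was 1.17 over events called higher in Q111, 1.48 over those called higher in Q7 and 1.87 over those not called. The part of the control in the run was not tested.

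Other long runs towards Q111 lay on chromosomes 8, 11 and 15. On chromosome 11 from 109679265 to 112027010, 33 of 39 events were called higher in Q111, with 401.3 reads in Q7 and 2228 in Q111. FRA2 was called higher in Q111 at 45 of its 58 events in that span and higher in Q7 at none, with a median of 2.56, the same as for JUND. On chromosome 15 from 53865499 to 54594827, 31 of 38 events were called in 0.729 Mb. On chromosome 8 from 82083634 to 85298096, 38 of 77 events were called, with a median of 0.97 for JUND and 1.57 for FRA2. The chromosome 11 run from 105057401 to 106843915, with 31 of 58 events called, had a control ratio of 1.59, close to that of all events.

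The longest runs towards Q7 had fewer called events, 32 in each of 3 runs. On chromosome 7 from 121459990 to 123255199, 32 of 39 events were called higher in Q7, with 1369 Q7 reads, 385 Q111 reads and a median of -2.08. FRA2 followed there, with 38 of 47 events called higher in Q7 and 1 called higher in Q111. On the X chromosome from 16281743 to 18745956, 32 of 54 events were called, and JUND had a median of -1.40 where FRA2 had -0.65. On chromosome 10 from 59096600 to 60577327, 32 of 72 events were called, with 3435 reads in Q7 and 2256 in Q111. Chromosome 17 held 2 runs of 31 called events, one of which covered 49 events from 75578088 to 78849234 with 2700 reads in Q7 and 1065 in Q111. Control reads in the chromosome 7 run had a ratio of 1.26 and in the chromosome 10 run 2.18, below and above the 1.66 of all events.

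**Figure D3:**
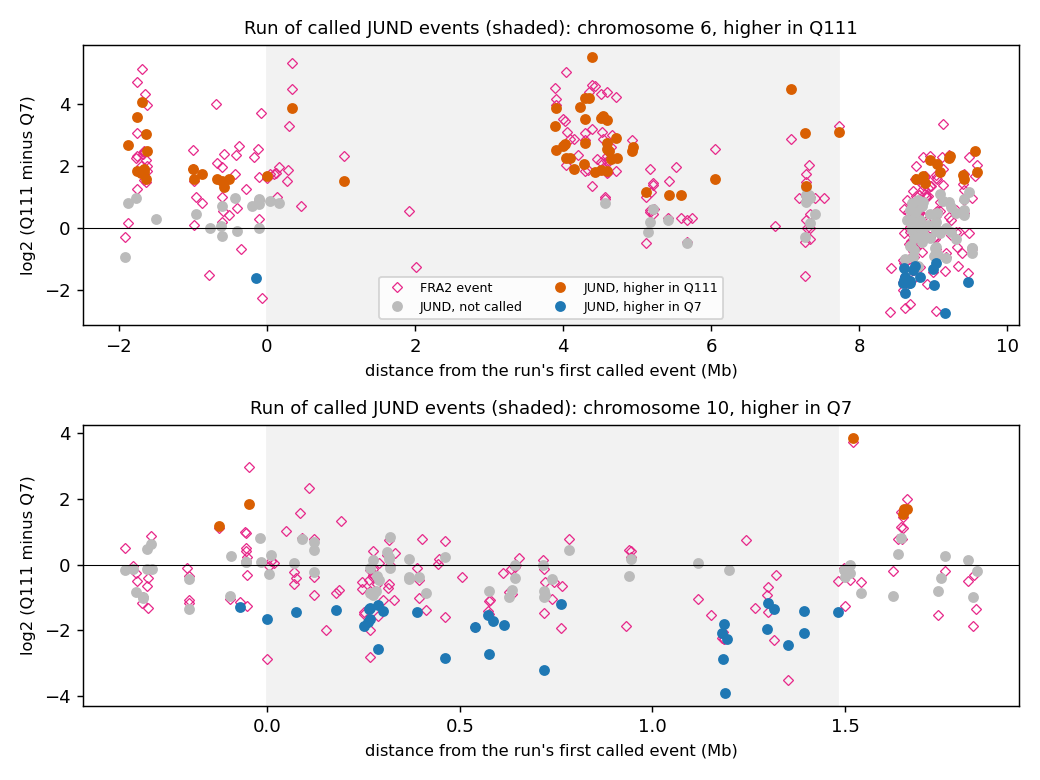
Log2 difference (Q111 minus Q7) of JUND events (filled circles, coloured by call) and FRA2 events (open diamonds) along 2 runs, by distance in Mb from the first called event of the run, which is shaded. The run on chromosome 6 holds 41 called JUND events, and that on chromosome 10, 1 of 3 runs with 32 called events, spans 1.48 Mb.

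The same was looked for in fixed windows of 1 Mb. A window was taken as having 1 direction with 10 or more called events, at least 50% of its events called and at least 90% of the called events the same way. Of 823 windows with 10 or more called events, 45 had the direction higher in Q111, spread over 18 chromosomes, and 39 the direction higher in Q7, over 17. With control scaling the numbers were 8 and 385. The windows held 7.97% of all events called higher in Q111 and 5.71% of those called higher in Q7, so most calls lay outside them. A further 228 windows with at least 50% called were mixed. JUND reads chose the windows, while FRA2 reads did not. The FRA2 median was above 0 in 45 of the 45 windows higher in Q111, at 0.75 to 3.16, and below 0 in 38 of the 39 windows higher in Q7. FRA2 events with no JUND partner within 100 bp went the same way: their median had the JUND direction in 45 of 45 and 36 of 39 windows. The exception to the FRA2 direction was chromosome 10 from 45 to 46 Mb, where 10 of 15 JUND events were called higher in Q7 (median -1.41) and the 24 FRA2 events had a median of 0.75. The control ratio, Q111 over Q7, was above that of all events in 5 of the 45 windows and 3 of the 39. Relative to all events, its median log2 was -0.51 in windows higher in Q111 and -0.43 in those higher in Q7. The part of the control in the windows was not tested.

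The window on chromosome 8 from 58 to 59 Mb was nearly uniform: 28 of 30 JUND events were called higher in Q111 and none higher in Q7, with 253 reads in Q7 and 1516 in Q111. Its strongest event, chr8:58922686, held 11.5 Q7 reads and 226.5 Q111 reads and was 18.9-fold higher in Q111 (10.6 to 36.9; adjusted p of the exact binomial test 1.2e-48). All 44 FRA2 events of the window were called higher in Q111. The window on chromosome 15 from 54 to 55 Mb had the most events called higher in Q111, 37 of 59, with 4 called higher in Q7. Its leading event, chr15:54542519, held 29 Q7 and 201 Q111 reads (6.82-fold, 4.67 to 10.6), and FRA2 at 20 bp held 61 and 446. In the window on chromosome 3 from 30 to 31 Mb, with 28 of 52 events higher in Q111, chr3:30001400 held 9 and 116 reads and FRA2 held 9 and 121. The leading events of the remaining 2 windows, chr4:105230223 and chr8:84784735, were 5.42-fold and 4.39-fold higher in Q111. FRA2 was thus called higher in Q111 at each of the 5 leading events. None of these 5 events had a SOX2 event within 1 kb.

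Of the 5 leading windows higher in Q7, 3 were on chromosome 10. The span from 85 to 86 Mb had 36 of 60 events called higher in Q7 and 3 called higher in Q111, with 3562 reads in Q7 and 1890 in Q111. From 92 to 93 Mb, 28 of 55 were called higher in Q7 and 1 higher in Q111, and from 44 to 45 Mb 20 of 36 and none. The strongest called events of the latter 2 windows, chr10:92601636 and chr10:44475297, were 2.13-fold and 2.06-fold higher in Q7, and both lost the call with the assumed dispersion. The second also lost it with control reads subtracted or with scaling by IP reads. The steepest of the leading events, chr15:37391972, held 214.9 Q7 reads and 18 Q111 reads and was 11.7-fold higher in Q7 (7.39 to 20.6; adjusted p of the exact binomial test 1.1e-40). FRA2 at 7 bp held 521 and 34 reads, and a SOX2 event lay 3 bp away. On the X, chrX:16603447 held 94.5 and 19.7 reads (4.71-fold, 2.88 to 8.05), with SOX2 at 173 bp. FRA2 was called higher in Q7 at chr15:37391972, chrX:16603447 and chr10:44475297. It was not called at chr10:92601636 (log2 difference -0.69) or at chr10:85563169 (-0.81), the leading event of the span from 85 to 86 Mb. Each of the 5 leading events higher in Q7 had a SOX2 event within 188 bp. Over all windows of 1 direction, 63.9% of JUND events in those higher in Q7 and 26.6% in those higher in Q111 had a SOX2 event within 1 kb. Of all JUND events, 43.6% had both SOX2 and FRA2 within 1 kb, and 6.75% had SOX2 without FRA2. SOX2, a transcription factor of neural progenitors, was mapped in Q7, so sites it may bind in Q111 alone are not among these.

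The difference also followed how many other JUND events lay nearby. The 3434 events with no other JUND event within 50 kb had a median log2 difference of 0.32, with 30.3% called higher in Q111 and 18.8% higher in Q7. The median was -0.08 for the 13098 events with 4 to 6 others and -0.29 for the 4644 events with 11 or more. In that last group 10.8% were called higher in Q111 and 23.0% higher in Q7. Isolated events thus leaned to Q111 and crowded ones to Q7. Median reads over both lines rose along the same classes, from 48 to 59. The span of the medians was smaller among events with 80 or more reads, from 0.22 to -0.16, and smaller again among events with 20 or more reads in each line, from 0.12 to -0.07. The part of read number in the pattern was not tested. FRA2 at the JUND positions showed the same order, from 0.32 to -0.22.

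SOX2 events, which were mapped in Q7 alone, also varied with the local number of JUND events. A SOX2 event lay within 1 kb of 29.9% of the isolated JUND events and of 69.9% of those with 11 or more others. Among events without SOX2 nearby the median fell from 0.75 for isolated events to 0.09 for the most crowded. Among events with SOX2 nearby it was -0.53 for isolated events and -0.41 for the most crowded, so the order there was slight and ran the other way. Mean control reads rose along the same classes, from 3.93 to 4.88 in Q7 and from 5.82 to 8.74 in Q111, and their part in the result was not tested.

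**Figure D4:**
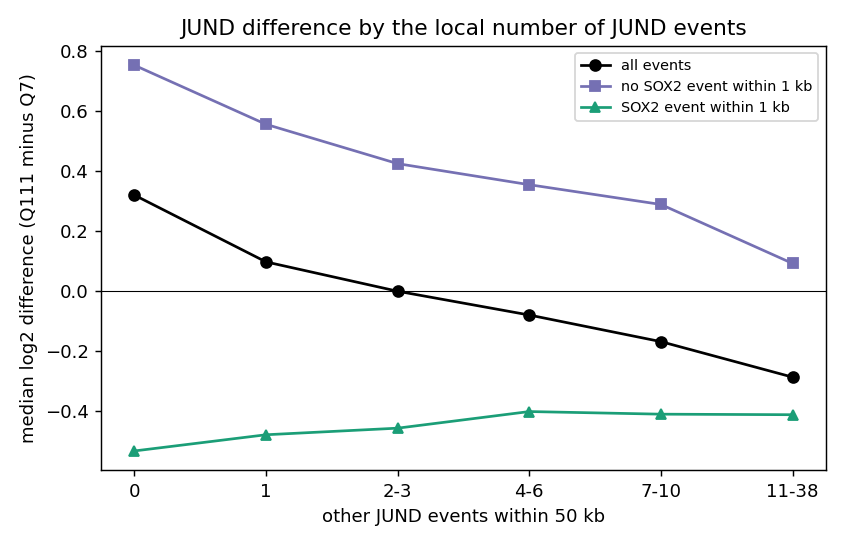
Median log2 difference (Q111 minus Q7) of JUND events by the number of other JUND events within 50 kb. Circles show all events, squares events with no SOX2 event within 1 kb and triangles events with one. Medians of all events fall from 0.32 to -0.29, while those of events near SOX2 stay between -0.53 and -0.40.

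Whether FRA2 or SOX2 was nearby divided the JUND events further. The 18831 events with FRA2 but no SOX2 within 1 kb had a median of 0.45, with 33.2% called higher in Q111 and 12.7% higher in Q7. The 20305 events with both had a median of -0.46, with 5.54% called higher in Q111 and 30.9% higher in Q7. For JUND events with neither, 4301 in number, the values were 0.26, 25.4% and 12.3%. The 3146 events with SOX2 but no FRA2 had a median of -0.20, with 5.05% called higher in Q111 and 25.3% higher in Q7. Over all events, medians were thus below 0 where SOX2 was near and above 0 where it was not, with or without FRA2. SOX2 was mapped in Q7 alone, so nearness to it selects sites that SOX2 bound in Q7. The part of this selection in the split was not tested. Restricted to events with 20 or more reads in each line, the medians were 0.15 with FRA2 alone, -0.12 with both, 0.13 with neither and 0.12 with SOX2 alone, so the last group changed sign. The median of events without FRA2 was 24 reads in Q111 with neither partner and 23 with SOX2 alone. These events had higher control reads in Q111, a mean of 8.73 and 9.81, against 6.18 for events with FRA2 alone and 7.39 for those with both. The part of the control in these values was not tested.

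Of the 7447 JUND events without a FRA2 event within 1 kb, 1250 (16.8%) were called higher in Q111 and 1326 (17.8%) higher in Q7, against 18.5% and 21.4% of all JUND events. The strongest higher in Q111 was chr15:59609132, with 33 Q7 and 120 Q111 reads (3.59-fold, 2.45 to 5.51), and the nearest FRA2 event lay 6.43 kb away. The event chr15:66554005 held 11.1 and 117.7 reads (10.2-fold, 5.77 to 22.0), with SOX2 at 38 bp. The event chr13:114903956 held 21 and 100 reads (4.67-fold, 2.95 to 8.02), with neither partner nearby. These 3 were thus each more than 3-fold higher in Q111 with no FRA2 event listed at the site. Towards Q7, chr10:24153838 held 89.9 and 20 reads (4.42-fold, 2.75 to 7.73), with SOX2 at 70 bp. The events chr3:135162112 and chr4:55664193 were 2.30-fold and 2.26-fold higher in Q7, and SOX2 lay 10 and 36 bp from them. At these 2 the assumed dispersion ended the call.

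At 35176 JUND events a FRA2 event was the mutual nearest within 100 bp, and FRA2 reads there give a second measure of the same sites. The FRA2 difference rose step by step with the JUND difference. Where JUND lay at -3 or below on the log2 scale, in 727 pairs, FRA2 had a median of -2.99, and 97.5% were called higher in Q7. Where JUND lay at 3 or above, in 928 pairs, the FRA2 median was 3.19 and 98.8% were called higher in Q111. In the middle, with JUND between 0 and 0.5, FRA2 had a median of 0.21 (quartiles -0.10 and 0.52), with 6.37% called higher in Q111 and 0.965% higher in Q7. Both antibodies were used on the same 2 lines, and the labels do not say whether the same cultures served for both. The 11407 JUND events without such a partner had 23 reads in each line at the median, against 31 and 30 for paired events, and 16.7% were called higher in Q111 and 19.3% higher in Q7.

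The 2 differences were compared at each pair by a two-sided Fisher exact test on the 4 read numbers, with Benjamini-Hochberg adjustment over the 35176 pairs. They differed at 92 pairs, with JUND further towards Q111 at 23 and FRA2 further towards Q111 at 69, and 3325 pairs had an unadjusted p below 0.05. The pair with the smallest p was chr6:72876988, where JUND held 280 Q7 and 203.9 Q111 reads and FRA2, at 5 bp, held 498 and 748 (adjusted p of the exact test 2.5e-07). Neither protein was called there on its own, and the next JUND event lay 31475 bp away. At chr8:88948404 JUND held 112 and 59 reads and FRA2 113.8 and 200.3, with a second FRA2 event at 132 bp (130.2 and 97.7 reads). At the other pairs no difference between JUND and FRA2 was shown, which does not show them to be equal at these read numbers.

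Chromosomes differed in the direction of JUND. Chromosome 17 had the lowest median, -0.60 over 1972 events, with 634 called higher in Q7 and 165 higher in Q111. Chromosome 14 had the highest, 0.28 over 1195 events, with 178 called higher in Q7 and 320 higher in Q111. The next lowest were chromosomes 19 and 12, at -0.30 and -0.22, and the next highest chromosomes 11 and 6, at 0.15 and 0.12. Over events with 20 or more reads in each line the median of chromosome 17 was -0.26 and that of chromosome 14 was 0.14. FRA2 had its lowest and highest medians on the same chromosomes, -0.44 on 17 and 0.37 on 14. The ratio of control reads, Q111 over Q7, was 1.78 on chromosome 17 and 1.61 on chromosome 14, and over all chromosomes ran from 1.33 on the X to 1.98 on chromosome 11. The control ratio over all events was 1.66. The part of the control in the values by chromosome was not tested. A single event on the mitochondrial genome, with 63 reads in Q7 and 163 in Q111 and 72.2 and 32.5 control reads, was not used in the values by chromosome.

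**Figure D5:**
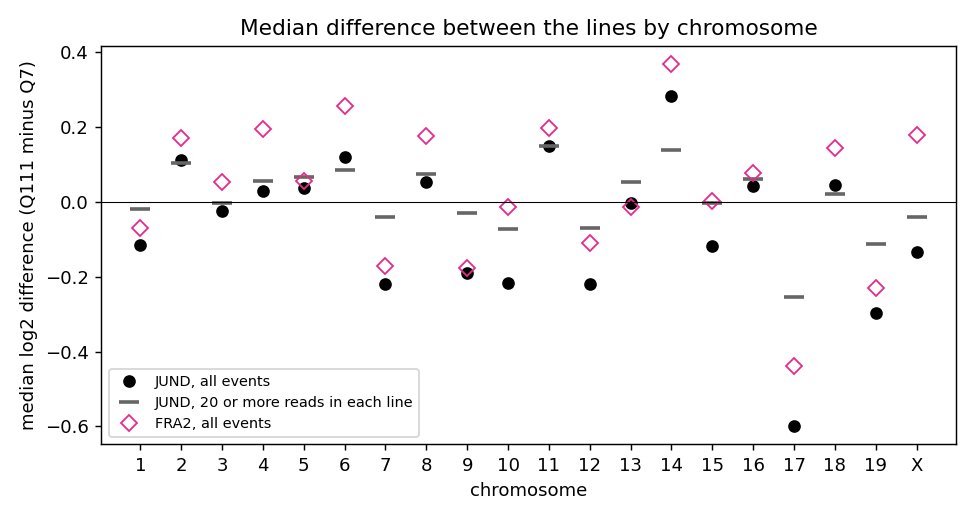
Median log2 difference (Q111 minus Q7) by chromosome for all JUND events (filled circles), JUND events with 20 or more reads in each line (bars) and all FRA2 events (open diamonds). Chromosome 17 is lowest and chromosome 14 highest for both proteins. The X is the chromosome where the 2 proteins lie farthest apart, at -0.13 for JUND and 0.18 for FRA2.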

How the data were processed

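Reads were aligned with Bowtie 0.12.7 to mm9, per the submitters' processing notes, and the tables carry the name of the GPS event caller (version and settings not given in the sources used here). For each protein the authors deposited 1 table. Per the file headers, the JUND and FRA2 IP values are expected counts: unscaled reads assigned to an event, whole for 78.0% (Q7) and 78.2% (Q111) of JUND values. They were rounded for the tests. Control values are a deposited signal, judged from its steps to be control reads times a factor per library, and the headers name no control library (the labels list IgG alone as a control antibody). The deposited −log10 q-value served in 1 alternative, and the deposited present mark in others. A further 28 value columns were not used.

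Groups came from sample titles, with 1 pooled library each. The two-sided exact binomial p is the doubled smaller tail, with Benjamini-Hochberg adjustment (limits 0.05 and 2-fold). Fold intervals are 95% Clopper-Pearson intervals and cover counting error only. A fold against 0 reads used a floor of 3 reads per library. Named positions are, for each direction, the 5 called events with the most reads, the leading event of the 5 windows with the most calls, and the 3 strongest without FRA2; also the 5 strongest equal events and the 3 clearest JUND against FRA2 pairs each way. The rule left out 19 events with 40 or more control reads and 14 within 100 bp of another. Runs, pairs under 100 bp and chromosomes were picked after values were seen. Members, lists and windows were chosen with earlier results of these data known. Planned gene lists were not run, since no annotation of mm9 was used. Analyses used Python 3.11.15, NumPy 2.4.6, pandas 2.3.3 and SciPy 1.17.1, and the test was checked on simulated data.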

Additional observations from a re-analysis of the deposited data

Results flagged for a closer look

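The differences of JUND and FRA2 between the lines were unlike at 6 named pairs, by the two-sided Fisher exact test on the 4 read numbers, adjusted over 35176 pairs. At chr6:72876988 the log2 difference of JUND minus that of FRA2 was -1.03, and at chr8:88948404 it was -1.72. At chr9:101131400, JUND held 77 Q7 and 104 Q111 reads and FRA2 210.9 and 108, a gap of 1.40. FRA2 also had an event 58 bp away there, with 98.1 and 211 reads. At chr5:81793682 the gap was 2.54: JUND had 7 and 64.6 reads and FRA2, 64 bp away, 84.8 and 127.4, and a stronger JUND event (231.5 and 207) lay at 297 bp.

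The remaining pairs include a position with about 0 reads in a line. At chr6:71673710 JUND had 79 and 55 reads, while FRA2 fell from 53.2 Q7 reads to 0.1 Q111 reads, at least 17.9-fold lower against a floor of 3 reads per library. FRA2 had a second position 18 bp away with 0 and 54.4 reads. At chr3:21722530 JUND went from 69 Q7 reads to 0 Q111 reads, at least 23.0-fold lower in Q111, with another JUND event at 103 bp (13 and 27 reads), while FRA2 had 65.4 and 33.4. The fitted gaps of 5.98 and -6.15 at these pairs depend on the pseudocount of 0.5. How the caller divided reads among close positions was not tested.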

How the results depend on the processing

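No paired analysis was possible because each group is 1 library of pooled replicates, so none could be left out either. The numbers called higher in Q111 and in Q7 (8628 and 9987) became 4037 and 20023 with scaling by control reads, 5376 and 6229 with a minimum of 40 reads, 5434 and 6188 with a fold limit of 3, and 4709 and 5069 with an assumed dispersion of 0.05. With 80 or more reads, an alternative chosen after seeing the data, they were 1548 and 1826. The other alternatives kept both within 1.5 times. The median of all differences (-0.06) was -0.13 with scaling by events marked in both lines, -0.015 by IP reads, -0.79 by control reads, -0.25 with control subtracted and 0.0043 with 80 or more reads. It lay within -0.07 to -0.05, its 95% order-statistic interval, in the others. Windows of 1 direction (45 higher in Q111, 39 in Q7) were 8 and 385 with control scaling, 28 and 19 at 2 Mb, and 76 and 68 with 80% of calls 1 way. Of 270 values of the 30 named events under alternatives, 251 stayed on the same side of the call and 19 lost it, 11 of them with the assumed dispersion. The sign changed in 9 values, all at the 5 nearly equal events, which were not called under any of these alternatives. Read number and calls cannot be told apart among weak events, since listing needed 20 reads in a line; what depth limits was not tested.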
